A study of Mus musculus with 8 samples.

Results

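The genes described here carry the work of the lysosome, and they are 32 genes taken by name from a count table of 31053. They comprise 4 proteins of the lysosomal membrane (Lamp1, Lamp2, Scarb2 and Mcoln1), 6 glycosidases (Hexa, Glb1, Gla, Gusb, Naglu and Man2b1), 2 hydrolases whose loss causes neuronal ceroid lipofuscinosis (Tpp1 and Ppt1), 2 precursor proteins that are cut inside the lysosome (Psap and Grn), 3 transcription factors of the MiT/TFE family (Tfeb, Tfe3 and Mitf) and 15 genes of the V-ATPase proton pump. Members were matched by the gene's name, from a list drawn up with earlier results of these data known, and 30 of the 32 had enough counts to be tested among 9264 genes.

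RNA from brown adipose tissue (BAT), the heat-producing fat depot, was sequenced from 4 wild-type (WT) and 4 db/db mice, 1 library per mouse, all 8 weeks old. The mice labelled db/db carry a mutation of the leptin receptor gene Lepr in every cell, eat in excess and become obese and diabetic, and the comparison asks how their BAT differs from that of WT mice. All animals were males on normal diet, and tissue was taken after fasting. The labels give C57BL6/J as the strain of both groups, whereas the study's methods describe WT mice from Charles River and B6.BKS(D)-Leprdb/J mice from the Jackson Laboratory, and the study's resource list gives a catalogue number for db/db that may belong to another background strain. Genotype therefore cannot be told apart from supplier or, possibly, from genetic background.

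The tissue was labelled brown adipose tissue and, in another field, stromal vascular fraction, which is what remains of fat once the adipocytes are removed. Adipocyte genes were abundant in all 8 libraries, with the summed level of 6 adipocyte markers between 8882 and 19466 CPM (defined below), which goes against the latter label. Lepr had 0 counts in every library of both genotypes, so it could not serve as a check on the genotype labels. The WT libraries held 2374079 to 2615009 counts and the db/db libraries 2382722 to 3240074. A level of 3 counts, taken as the floor of detection, corresponded to 0.902 to 1.33 CPM. CPM here is the count per 1000000 counts on the genes that passed the filter, after scaling by the TMM (trimmed mean of M-values) factor of each library.

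Lysosomes are acidic organelles in which hydrolases break down sugars, lipids and proteins delivered by endocytosis and autophagy. The V-ATPase acidifies them: its cytosolic V1 sector splits ATP and its membrane V0 sector carries protons across. Many lysosomal genes are switched on together by TFEB, TFE3 and MITF through a shared promoter motif, and macrophages that clear lipid are rich in lysosomes.

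The promoters of some of the listed genes are shown because the MiT/TFE factors are known to bind an E-box-like motif there. Promoter sequences running from 250 bases before to 50 bases after each start site came from RefSeq (build GRCm38.p6), and 28 of the 32 genes had an entry. The 7 bases TCACGTG, searched on both strands, occurred in 9 of these 28 genes (32.1%), against 7.39% of the genes tested that had an entry and 4.29% of all genes with one. The shorter E-box CACGTG, which lies inside that motif, was present in the same 9 genes and in 12.1% of the genes tested, and its 10-base palindromic extension, the CLEAR motif, in 0 of the 28 against 0.856% of the genes tested. The motif was originally recognised in promoters of lysosomal genes, so its share here is a description. Below, capitals mark each copy of the motif, and every sequence reads from 5′ to 3′ on the strand of its gene.
Lamp1, chr8:13159073-13159160, plus strand, ending at the base before the annotated gene: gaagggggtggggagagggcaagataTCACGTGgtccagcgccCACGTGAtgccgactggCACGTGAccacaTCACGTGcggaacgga
Atp6v1a, chr16:44139373-44139402, minus strand, inside the annotated gene but in no exon: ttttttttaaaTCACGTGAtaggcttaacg
Atp6v0e, chr17:26676387-26676416, plus strand, within an annotated exon: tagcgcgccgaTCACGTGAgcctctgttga
Atp6v0d1, chr8:105566050-105566079, minus strand, just before the annotated gene: ccctactgcggTCACGTGAgacgcggtgcg
Glb1, chr9:114401018-114401047, plus strand, before the annotated gene: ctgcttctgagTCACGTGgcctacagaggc
Lamp1 held 4 copies, which begin at positions -62, -45, -28 and -16 relative to its start site (the first base of the gene being 0). Atp6v0b, Mcoln1 and Gla held 2 each, and Naglu held 1, as did the other genes shown. The 9 genes did not move as a block: Lamp1 and Atp6v1a were higher in db/db, Atp6v0e was lower, Mcoln1, Glb1, Naglu, Atp6v0b and Atp6v0d1 did not pass the test, and Gla had too few counts. Among the members with a promoter entry, 2 of the 9 called higher, 1 of the 2 called lower and 5 of the 15 not called held the motif.

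More of these genes were higher than lower in db/db BAT. All 9 hydrolases and precursor proteins tested had positive log2 fold changes, 5 of them past the threshold, whereas the 14 V-ATPase genes tested had a median of -0.04. Of the 30 genes tested, 10 were higher in db/db (33.3%), 2 were lower (6.67%) and 18 did not pass an adjusted p of 0.05 (edgeR's quasi-likelihood test, Benjamini-Hochberg adjustment over all 9264 genes). Across all genes tested, 15.8% were called higher and 11.9% lower. The median log2 fold change (db/db minus WT) was 0.24 over the 30 genes and 0.01 over all genes. The libraries of the genotypes did not overlap for 13 of the 30 (43.3%), against 28.1% of all genes. The 10 higher genes were Atp6v0a1, Gusb, Man2b1, Ppt1, Grn, Psap, Atp6v1b2, Lamp1, Atp6v1a and Atp6ap1, and the 2 lower ones were Atp6v0e and Atp6v1d.

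**Figure D1:**
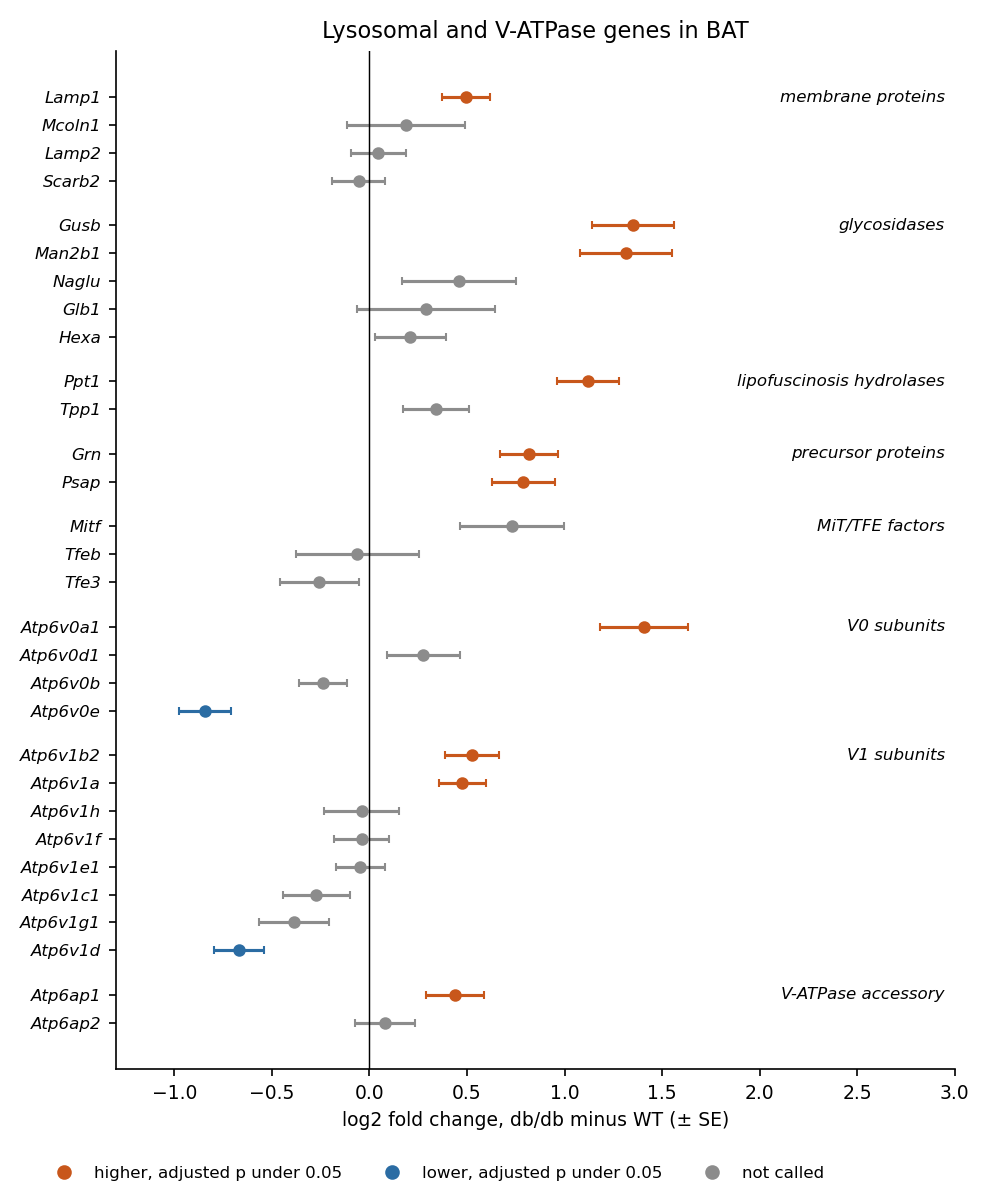
Log2 fold change (db/db minus WT, x axis, bars ± SE, 4 libraries per genotype) of the 30 listed genes that were tested, grouped by class. All 7 hydrolases and both precursor proteins lie to the right of 0, with Gusb at 1.35, whereas V-ATPase genes lie on both sides, from -0.84 for Atp6v0e to 1.41 for Atp6v0a1.

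Among the membrane proteins, 1 of 4 was higher. Lamp1 (chr8:13159161-13175338, plus strand, in GENCODE M21 on GRCm38, as for all gene positions here), the heavily glycosylated protein that lines the inner face of the lysosomal membrane, was at 417, 438, 380.3 and 372 CPM in the 4 WT libraries and at 560.1, 530.3, 611 and 567 CPM in the 4 db/db libraries. Every db/db library lay above every WT library. The log2 fold change was 0.50 ± 0.12 (SE), adjusted p = 0.00539, which corresponds to a 1.41-fold level. Its close relative Lamp2, which also serves chaperone-mediated autophagy, was at 118, 124, 152 and 137 CPM in WT and 152, 156, 127 and 114 CPM in db/db, and these ranges overlapped. Scarb2, a receptor that carries an enzyme to the lysosome, lay between 157 and 191 CPM in WT and between 139 and 193 CPM in db/db. Mcoln1, a cation channel that releases lysosomal calcium, lay between 4.67 and 13.5 CPM in WT and between 10.5 and 14.9 CPM in db/db. The log2 fold changes of these 3 lay between -0.06 and 0.19, with adjusted p of at least 0.697, so Lamp1 was the one member of the class past the threshold.

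The glycosidases gave the steepest rises outside the pump. Gusb (chr5:129989011-130003049, minus strand), beta-glucuronidase, an enzyme of glycosaminoglycan breakdown, was at 10.1, 9.28, 9.77 and 8.06 CPM in WT and at 25.3, 23.5, 23.0 and 23.4 CPM in db/db. The libraries within each genotype were close together and the genotypes were far apart. Its log2 fold change was 1.35 ± 0.21, adjusted p = 1.19e-04. Man2b1 (chr8:85083270-85098282, plus strand), the alpha-mannosidase that trims mannose from glycoproteins, was at 24.7, 13.1, 19.9 and 21.2 CPM in WT and at 73.4, 39.1, 44.3 and 39.4 CPM in db/db. All db/db libraries were above all WT libraries, and db/db replicate 1 stood well above the other 3. The change was 1.32 ± 0.24 on the log2 scale, adjusted p = 4.26e-04, and it was 1.04 without that library.

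The other glycosidases had positive estimates that did not pass the test. Naglu, which removes N-acetylglucosamine from heparan sulphate, was at 11.7, 5.49, 7.89 and 7.22 CPM in WT and 9.63, 11.8, 9.75 and 13.4 CPM in db/db (log2 fold change 0.46 ± 0.29, adjusted p = 0.267). Hexa, an enzyme of ganglioside breakdown, was at 61.1, 57.0, 77.0 and 66.2 CPM in WT and 102, 74.4, 51.0 and 74.0 CPM in db/db (0.21 ± 0.18, adjusted p = 0.426). Both sets of libraries overlapped, with db/db replicate 1 the highest for Hexa and db/db replicate 3 the lowest of all 8. Glb1, lysosomal beta-galactosidase, lay between 3.76 and 10.9 CPM in WT and between 6.62 and 13.0 CPM in db/db, with 10 to 41 counts per library (0.29 ± 0.35, adjusted p = 0.585). Its exons share bases with Tmppe on the same strand, so its counts are uncertain. Gla, alpha-galactosidase A, had 2, 1, 1 and 0 counts in WT and 5, 7, 1 and 6 in db/db, below the filter. Its log2 CPM was 0.99 higher in db/db, with p = 0.0571 in an exact two-sided permutation test of 4 against 4 (smallest possible p 0.0286), so no difference was detectable at this depth. Without db/db replicate 3 the exact p was 0.0286.

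Of the lipofuscinosis hydrolases, Ppt1 (chr4:122836242-122859175, plus strand), which removes fatty acids from lipid-modified proteins, was at 25.5, 22.8, 29.7 and 25.5 CPM in WT and at 64.1, 54.7, 53.6 and 52.8 CPM in db/db. No library of one genotype reached the range of the other. The log2 fold change was 1.12 ± 0.16, adjusted p = 5.35e-05. Tpp1, a tripeptidyl peptidase, was at 42.9, 59.9, 62.0 and 53.9 CPM in WT and 84.8, 61.7, 74.0 and 56.5 CPM in db/db. Its ranges overlapped by the lowest 2 db/db libraries, and it did not pass (0.34 ± 0.17, adjusted p = 0.140). Over the 8 hydrolases the summed level was 192 CPM (SD 13.5, n = 4) in WT and 296 CPM (SD 47.6, n = 4) in db/db, and the libraries did not overlap.

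Both precursor proteins were higher. Psap (chr10:60277627-60302597, plus strand) encodes prosaposin, which is cut into the saposins that help enzymes reach sphingolipids, and it was at 357, 618, 607 and 536 CPM in WT and 1007, 817, 935 and 897 CPM in db/db. WT replicate 1 was the lowest library and all db/db libraries were above the highest WT library. The change was 0.79 ± 0.16 on the log2 scale, adjusted p = 0.00129. Grn (chr11:102430315-102437048, plus strand) encodes progranulin, which is cut into granulins, and it was at 253, 194, 224 and 246 CPM in WT and 503, 322, 382 and 409.9 CPM in db/db. The genotypes did not overlap here either (0.82 ± 0.15, adjusted p = 4.80e-04). Their summed level was 1.74 times as high in db/db as in WT.

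The MiT/TFE factors, known activators of lysosomal genes, gave no member past the threshold. Tfeb was at 8.09, 11.8, 6.01 and 7.22 CPM in WT and 6.62, 9.86, 8.87 and 6.32 CPM in db/db, with fully overlapping libraries (-0.06 ± 0.32, adjusted p = 0.910). Tfe3 lay between 20.7 and 24.0 CPM in WT and between 14.7 and 23.4 CPM in db/db (-0.26 ± 0.20, adjusted p = 0.375). Mitf was at 10.5, 8.02, 12.4 and 6.79 CPM in WT and 18.4, 12.7, 18.6 and 13.4 CPM in db/db. Its db/db libraries were all above its WT libraries, yet with 16 to 61 counts per library the change of 0.73 ± 0.27 gave an adjusted p of 0.0502. At an unadjusted p of 0.05, 1 of the 3 passed in edgeR, which was Mitf, and DESeq2 and limma-voom called 0 of the 3 after adjustment. Leaving out WT replicate 3 or db/db replicate 2 brought the adjusted p of Mitf to 0.0360 and 0.0432.

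The V-ATPase genes moved in both directions. Of the 14 tested, 4 were higher (28.6%) and 2 were lower (14.3%), against 15.8% and 11.9% of all genes. The summed level of the 15 genes was 1682 CPM (SD 50.9) in WT and 1615 CPM (SD 103) in db/db, with overlapping libraries, and the calls were on single subunits.

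In the V0 sector, Atp6v0a1 (chr11:101009452-101063719, plus strand), an isoform of the large subunit a that lines the proton path, was at 26.7, 16.5, 26.3 and 17.8 CPM in WT and at 81.2, 44.2, 45.7 and 60.6 CPM in db/db. This was the largest change among the 30 members tested, at 1.41 ± 0.22 on the log2 scale (adjusted p = 1.47e-04), and db/db replicates 1 and 4 were the highest. Atp6v0e (chr17:26663231-26699647, plus strand), the small membrane subunit e, went the other way, with 269.5, 309.8, 327 and 326 CPM in WT and 156, 197, 154 and 179.7 CPM in db/db. Every db/db library was below every WT library (-0.84 ± 0.13, adjusted p = 1.24e-04), which corresponds to 0.557 of the WT level.

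Atp6v0b, a subunit of the rotating proteolipid ring, was at 115, 111, 116 and 103 CPM in WT and 89.3, 97.4, 94.0 and 97.5 CPM in db/db. The ranges did not overlap but the change was small and did not pass (-0.24 ± 0.12, adjusted p = 0.161). Atp6v0d1, which couples the ring to the central stalk, was at 30.8, 21.5, 39.1 and 28.0 CPM in WT and 38.5, 33.4, 37.7 and 35.3 CPM in db/db (0.28 ± 0.19, adjusted p = 0.299). For Atp6v0c, the main proteolipid of the ring, 3 counts were recorded in WT replicate 3 and 0 in the other 7 libraries. Of the 75-base words of its exons, 9.24% also occur in 2 pseudogenes, and no level is given for it. The summed V0 level was 472 CPM (SD 29.0) in WT and 360.3 CPM (SD 19.8) in db/db, without overlap, and this sum was not tested. Its largest part was Atp6v0e, at 308 CPM on average in WT and 172 CPM in db/db. Of the 4 V0 genes tested, 2 had positive log2 fold changes, so the sum does not describe the sector as a whole.

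In the V1 sector, both subunits of the ATP-splitting head were higher. Atp6v1a (chr16:44085402-44139705, minus strand), the catalytic subunit A, was at 104, 114, 114 and 114 CPM in WT and at 159, 163, 149 and 148 CPM in db/db. Its partner Atp6v1b2 (chr8:69088646-69113711, plus strand), subunit B, was at 87.8, 108, 115 and 120.1 CPM in WT and at 173, 141, 161 and 145 CPM in db/db. The genotypes did not overlap for either gene, and the log2 fold changes were close, at 0.47 ± 0.12 (adjusted p = 0.00691) for Atp6v1a and 0.52 ± 0.14 (adjusted p = 0.00828) for Atp6v1b2.

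Atp6v1d (chr12:78840725-78861638, minus strand), subunit D of the central rotor shaft, was lower, at 175, 162, 157 and 181 CPM in WT and 111, 96.7, 99.7 and 118 CPM in db/db. Every db/db library lay below every WT library (-0.67 ± 0.13, adjusted p = 6.85e-04). The remaining V1 members did not pass. Atp6v1g1, of the peripheral stalk, was at 46.5, 81.5, 72.1 and 60.3 CPM in WT and 50.2, 59.5, 42.1 and 46.9 CPM in db/db (-0.39 ± 0.18, adjusted p = 0.118), and it was called lower when WT replicate 1, its lowest WT library, was left out (-0.54, adjusted p = 0.0295). It shares 12.5% of its 75-base words with 2 other loci, so its level is uncertain. Atp6v1c1, which links the sectors, was at 47.3, 48.1, 62.8 and 46.7 CPM in WT and 36.1, 41.4, 38.6 and 53.9 CPM in db/db (-0.27 ± 0.17, adjusted p = 0.258). Atp6v1e1, of the peripheral stalk, Atp6v1f, of the rotor shaft, and Atp6v1h, the regulatory subunit H, had log2 fold changes between -0.05 and -0.04, each smaller than its SE.

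Of the accessory proteins, Atp6ap1 (chrX:74297097-74304721, plus strand), which helps assemble and deliver the pump, was at 165, 144, 112 and 152 CPM in WT and 226, 159, 192 and 199 CPM in db/db. The lowest db/db library lay within the WT range, and the change was 0.44 ± 0.15 (adjusted p = 0.0347). That call was lost in 6 of the 8 fits that left out 1 library, with adjusted p up to 0.134. Atp6ap2, the prorenin receptor, was at 61.5, 58.2, 57.1 and 64.5 CPM in WT and 66.5, 47.7, 68.3 and 73.3 CPM in db/db (0.08 ± 0.15, adjusted p = 0.744).

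**Figure D2:**
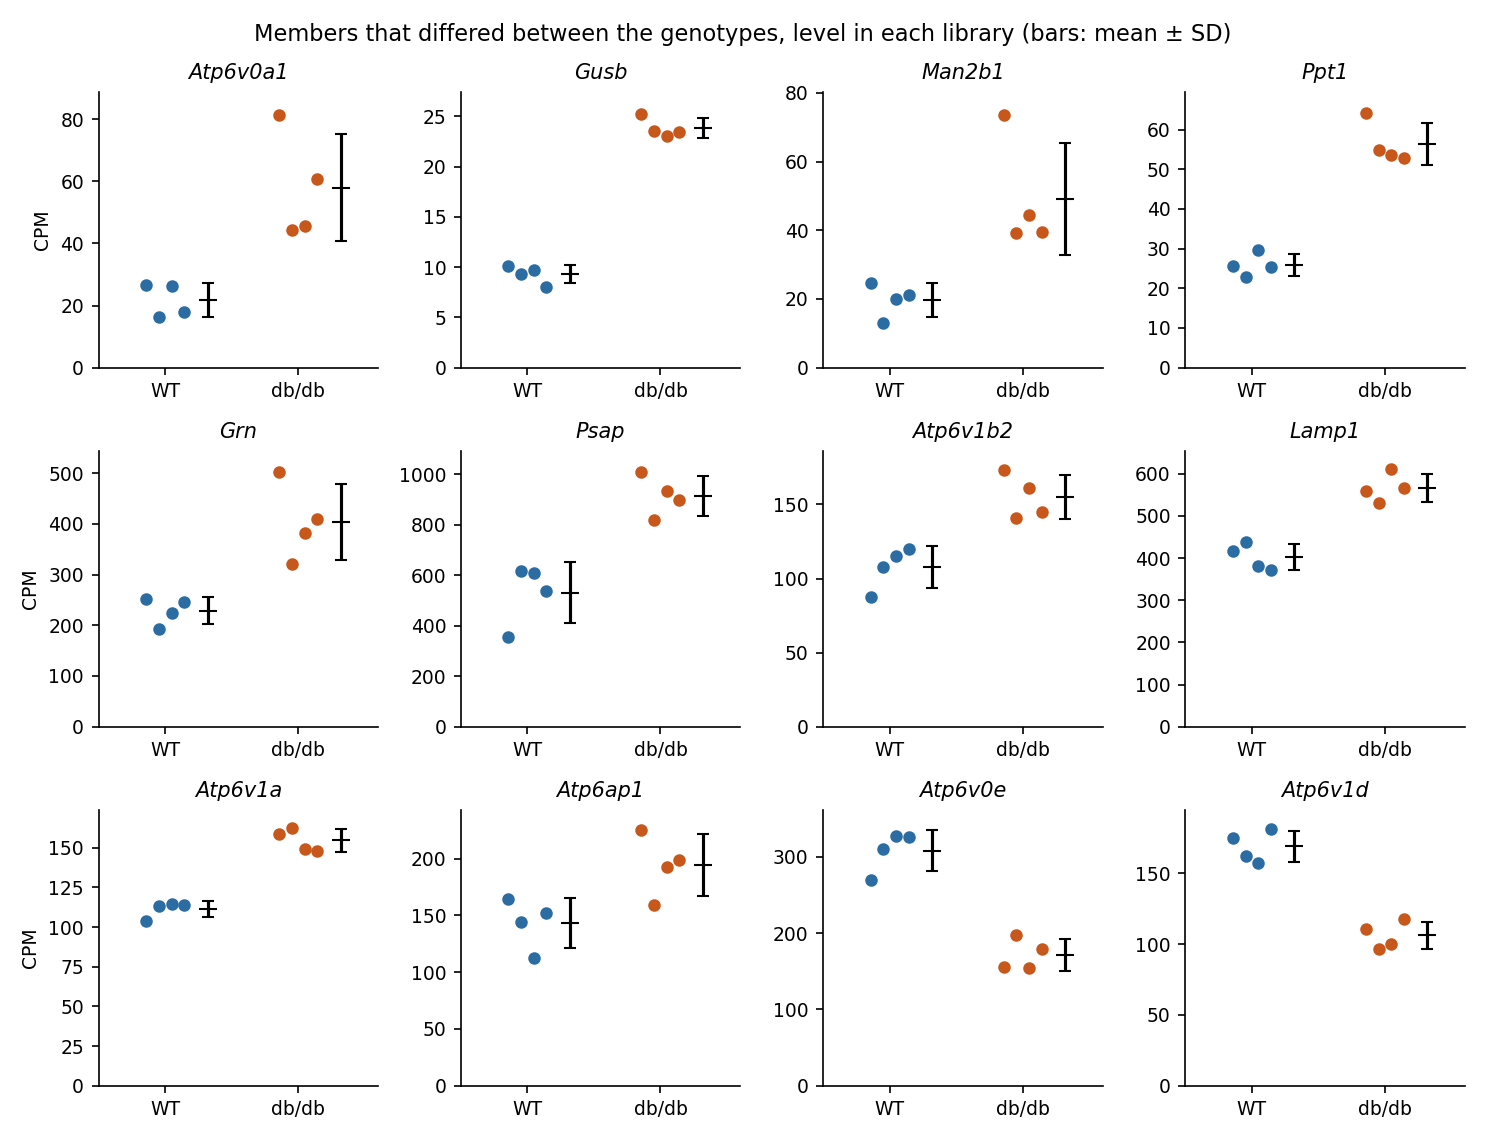
CPM (y axis, from 0) of the 12 members called higher or lower, in each of the 4 WT and 4 db/db libraries, drawn in replicate order within a genotype, with mean ± SD. Only Atp6ap1 has overlapping genotypes, and db/db replicate 1, drawn leftmost in its group, is the highest db/db library for 8 of the 10 higher genes.

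Isoforms of the same V-ATPase subunit did not all receive the same call, and differences between isoforms were not tested. Of 20 further V-ATPase isoforms and assembly factors, 16 were tested, 3 were higher (18.8%) and 2 were lower (12.5%), against 15.8% and 11.9% of all genes. The 3 higher genes, Atp6v0d2, Atp6v0e2 and Atp6v1c2, met the count filter only through their db/db libraries, and Atp6v1g2, one of the lower genes, only through its WT libraries, so these counts say nothing about the list. All 30 members tested had at least 10 counts in every library. Atp6v0d2, the isoform of subunit d found in osteoclasts and macrophages, had 1 count in all WT libraries together and 167 in the db/db libraries, a ratio of 144 after scaling with a 95% counting interval of 25.5 to 5732. It lay between 12.4 and 15.3 CPM in the 4 db/db libraries, whereas its widely expressed counterpart Atp6v0d1 did not pass. Atp6v0e2, the other subunit e, was higher while Atp6v0e was lower, between 0.752 and 4.45 CPM in WT and between 5.09 and 18.7 CPM in db/db (1.66 ± 0.49, adjusted p = 0.0171). That call was lost without WT replicate 3 or without db/db replicate 1, with adjusted p up to 0.103.

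Atp6v1c2, the alternative subunit C, was at 1.62, 1.69, 0.752 and 4.67 CPM in WT and 3.91, 14.6, 10.6 and 17.9 CPM in db/db, with 1 db/db library inside the WT range (2.42 ± 0.52, adjusted p = 0.00202). Atp6v1g2, the subunit G of neurons, was lower, at 7.28, 8.44, 9.02 and 8.49 CPM in WT and 0.902, 2.55, 4.88 and 1.12 CPM in db/db (-1.86 ± 0.45, adjusted p = 0.00458). Exons of both genes overlap another gene on the opposite strand, so their counts are uncertain. Tmem199, an assembly factor of the V0 sector, was lower at -0.77 ± 0.26 (adjusted p = 0.0361), a call lost in 7 of the 8 fits without 1 library and in DESeq2. Atp6v0a2 and Tcirg1, the other subunit a isoforms tested and named here after their values were seen, had log2 fold changes of 0.01 and 0.26 and did not pass, while Atp6v0a1 was higher.

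**Figure D3:**
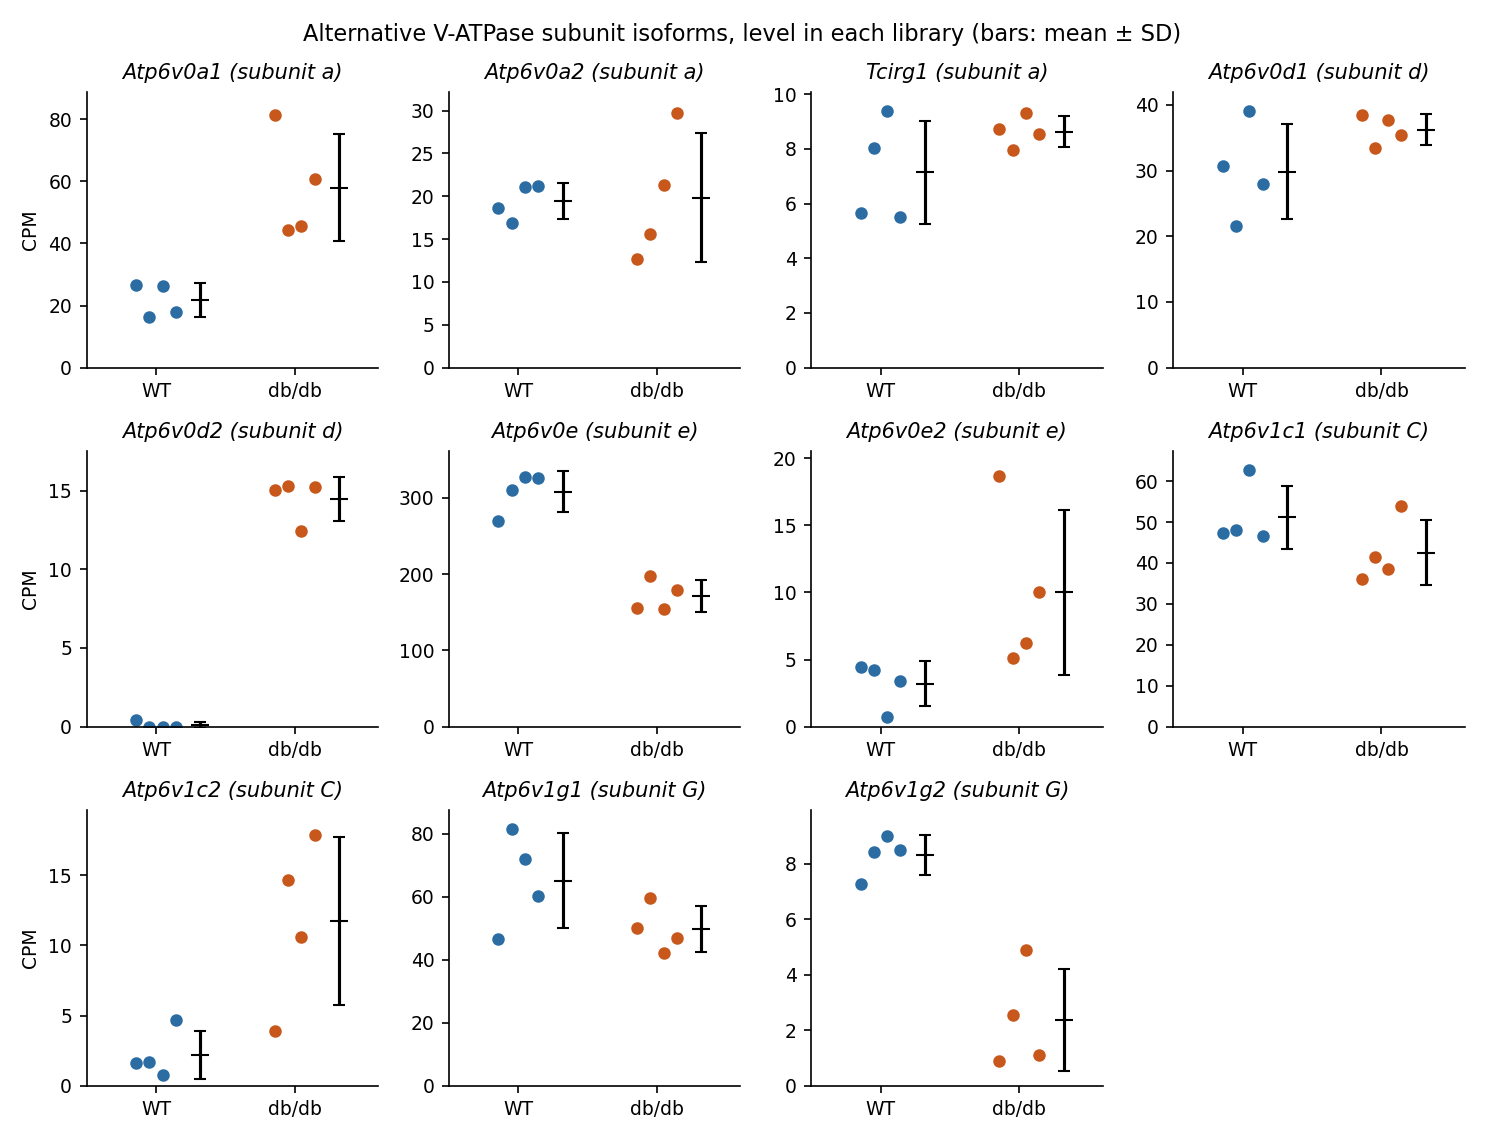
CPM (y axis, from 0) of alternative isoforms of V-ATPase subunits a, d, e, C and G in each library, with mean ± SD. Atp6v0d2 is near 0 in WT and between 12.4 and 15.3 CPM in db/db, and subunit e shows opposite directions for Atp6v0e (down) and Atp6v0e2 (up).

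Lysosomal genes outside the 32 were called about as often as all genes. Of 69 further hydrolases and membrane proteins, 59 were tested and 16 were called (27.1%, against 27.7% of all genes), with 13 higher (22.0%, against 15.8%) and 3 lower (5.08%, against 11.9%) and a median log2 fold change of 0.22. Among the hydrolases, 9 of 32 were higher (28.1%) and 1 was lower (3.12%). Those higher included Lgmn, an asparaginyl endopeptidase, which was at 3.24, 11.4, 9.02 and 1.70 CPM in WT and 18.0, 32.8, 15.5 and 11.9 CPM in db/db, without overlap (1.62 ± 0.43, adjusted p = 0.00851). Sgsh, a heparan sulphatase, was at 11.3, 8.44, 6.76 and 8.91 CPM in WT and 25.3, 27.0, 18.6 and 22.3 CPM in db/db, also without overlap (1.40 ± 0.24, adjusted p = 2.50e-04). Lgmn met the count filter only through its db/db libraries. Exons of Sgsh overlap a gene on the opposite strand, so its counts are uncertain. Creg1, a secreted glycoprotein also found in lysosomes, was lower (-0.51 ± 0.13, adjusted p = 0.00633).

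Among the further membrane proteins, 4 of 27 were higher (14.8%) and 2 were lower (7.41%), neither share above that of all genes. Slc11a1, the metal transporter of macrophage phagosomes, was at most 2.63 CPM in WT and met the count filter only through its db/db libraries (2.24 ± 0.57, adjusted p = 0.00695). Slc29a3, a nucleoside transporter, was higher by 1.48 ± 0.23 on the log2 scale (adjusted p = 1.00e-04), and Cd63, a tetraspanin, by 1.23 ± 0.16 (adjusted p = 1.81e-05). Abca2, a lipid transporter, was higher by 0.58 ± 0.16 (adjusted p = 0.0141), a call lost without WT replicate 3 or WT replicate 4. The largest fall was that of Npc1, which moves cholesterol out of the lysosome and was at 137, 129, 118 and 140.5 CPM in WT and 37.0, 54.4, 56.3 and 61.0 CPM in db/db. No library overlapped (-1.33 ± 0.16, adjusted p = 7.92e-06), although its exons share bases with genes on the opposite strand. Tmem106b, which regulates lysosome size and position, was lower at -0.72 ± 0.14 (adjusted p = 9.01e-04).

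None of the 23 genes for sorting of enzymes to the lysosome (mannose phosphate receptors, tagging enzymes and adaptors) was called by edgeR, DESeq2 or limma-voom. In edgeR, 27.7% of all genes were called. Of the 23, 2 had an unadjusted p under 0.05 in edgeR (Vps11 and Rab7, named after their values were seen). Among 20 tested genes that regulate TFEB through nutrient sensing and its partners, 1 was higher (5%) and 4 were lower (20%), against 15.8% and 11.9% of all genes. Rraga, a Rag GTPase of the lysosomal surface, was higher at 0.61 ± 0.19 (adjusted p = 0.0229), a call lost without WT replicate 1, WT replicate 2 or db/db replicate 4. Zkscan3, a repressor of lysosomal genes, was at 30.8, 33.8, 31.9 and 29.3 CPM in WT and 18.7, 18.8, 15.5 and 13.0 CPM in db/db, without overlap (-0.92 ± 0.19, adjusted p = 0.00136). Fnip1, a folliculin partner in the same pathway, was lower at -0.89 ± 0.15 (adjusted p = 2.50e-04), and Lamtor4, a part of the Ragulator scaffold, at -0.49 ± 0.13 (adjusted p = 0.00915). Mtor, the kinase that retains TFEB in the cytosol, was lower at -0.46 ± 0.15 (adjusted p = 0.0296), and this call was lost in 4 of the 8 fits without 1 library and with a filter of 10 counts in every library.

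**Figure D4:**
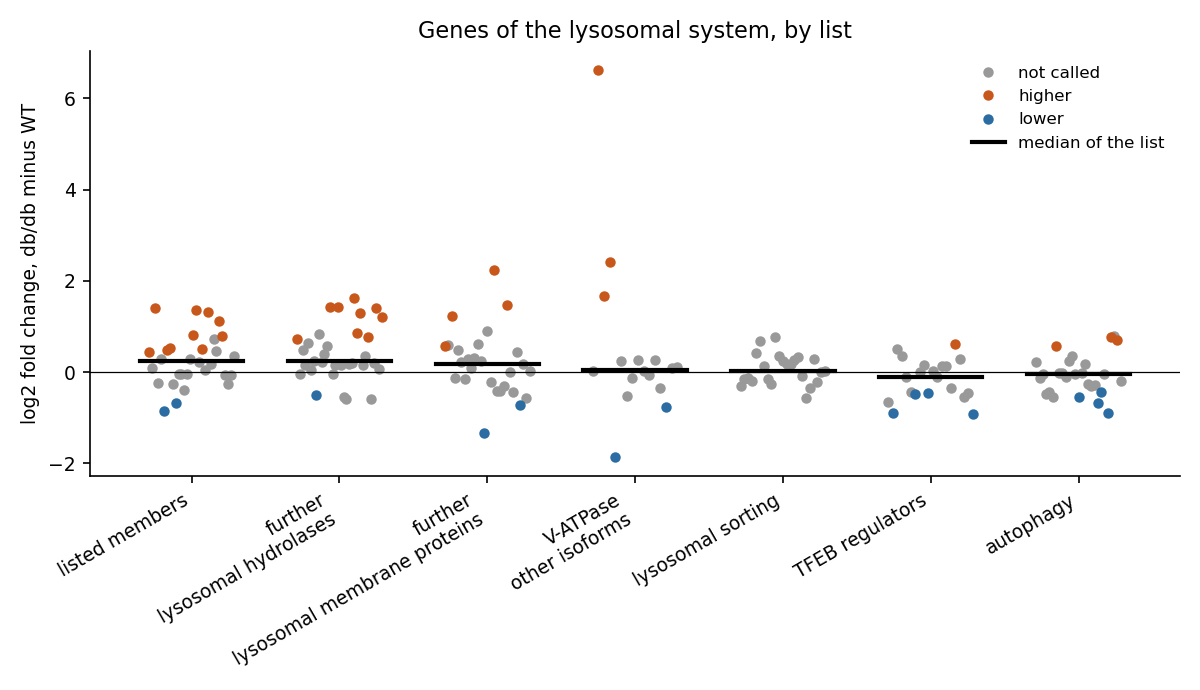
Log2 fold change (db/db minus WT, y axis) of every tested gene in 7 lists of the lysosomal system, with called genes coloured and the median of each list as a bar. The medians of the 3 leftmost lists lie above 0, at 0.24, 0.23 and 0.19, and those of the other 4 lie between -0.10 and 0.05.

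Levels of several cell types' markers moved with the higher members. In bulk tissue, a larger share of cells of a type and more RNA per cell cannot be told apart. Over all genes tested, 15.8% were higher and 11.9% lower. Of 11 macrophage markers tested, 9 were higher (81.8%, median log2 fold change 2.17). The other 2 had negative log2 fold changes, down to -1.03, and did not pass. The 12 listed summed to 188 to 242 CPM in the WT libraries and 759 to 1332 CPM in the db/db libraries. No macrophage marker was at 0 in every library. Several markers, such as Adgre1, Itgam and Trem2, met the count filter only through the db/db libraries, so the counts and medians of the marker lists are descriptions. Among 7 tested markers of lipid-associated macrophages, 5 were higher (71.4%) and 1, Lpl, which adipocytes also express, was lower. The 8 listed summed to 4673 to 6232 CPM in the WT libraries and 3887 to 4923 CPM in the db/db libraries, so that this sum, 5230 CPM on average in WT of which Lpl made up 4775 CPM, was lower on average in db/db, with overlap. All 8 fibroblast markers were higher (median 1.5), and they summed to 623 to 788 CPM in the WT libraries and 1264 to 2726 CPM in the db/db libraries. All 12 skeletal muscle markers were higher (median 2.59), with sums of 442 to 1593 CPM in the WT libraries and 2397 to 11966 CPM in db/db. Of 6 brown adipocyte markers tested, 5 were lower (83.3%), and the 8 listed summed to 8886 to 10554 CPM in WT and 3721 to 6764 CPM in db/db. Of the 6 general adipocyte markers, 2 were higher (33.3%) and 4 did not pass, and their sum was 8882 to 15869 CPM in WT and 14552 to 19466 CPM in db/db, with overlap. Endothelial markers were lower in 3 of 7 tested (42.9%), neutrophil markers higher in 1 of 2, and none of 6 T and B cell markers had enough counts to be tested.

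The library of db/db replicate 1 had the highest macrophage, fibroblast and muscle sums and the lowest brown adipocyte sum, and it was the highest db/db library for 8 of the 10 members called higher. Without it, 9 of those 10 were still called and Atp6ap1 was not. Adding a macrophage score built from the markers as a covariate left 0 of the 30 members called in edgeR, with 0 at an unadjusted p under 0.05, and 28 genes called of all 9264. Of the 12 members called without the score, Man2b1, Grn and Atp6v0a1 changed sign in that fit, whereas the others kept theirs. Lamp1 at 0.64, Atp6v1a at 0.52 and Atp6v1d at -0.91 on the log2 scale were larger in size than without the score, and the remaining 6 were smaller, with Ppt1 at 0.47 against 1.12, Psap at 0.65, Gusb at 1.03, Atp6v1b2 at 0.30, Atp6ap1 at 0.16 and Atp6v0e at -0.59. Adding a skeletal muscle score left 1, Gusb, and 465 genes of all. None of the 12 changed sign there, and several estimates stayed near those without the score, with Lamp1 at 0.52, Ppt1 at 0.98, Atp6v0a1 at 1.29, Atp6v0e at -0.77 and Atp6v1d at -0.68. Others were smaller, with Man2b1 at 0.76, Grn at 0.61, Psap at 0.42, Atp6v1a at 0.39, Atp6ap1 at 0.27 and Atp6v1b2 at 0.16. The macrophage and muscle sums did not overlap between the genotypes, so neither fit separates the marker level from the genotype, and the part of these cell types in the results was not tested.

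**Figure D5:**
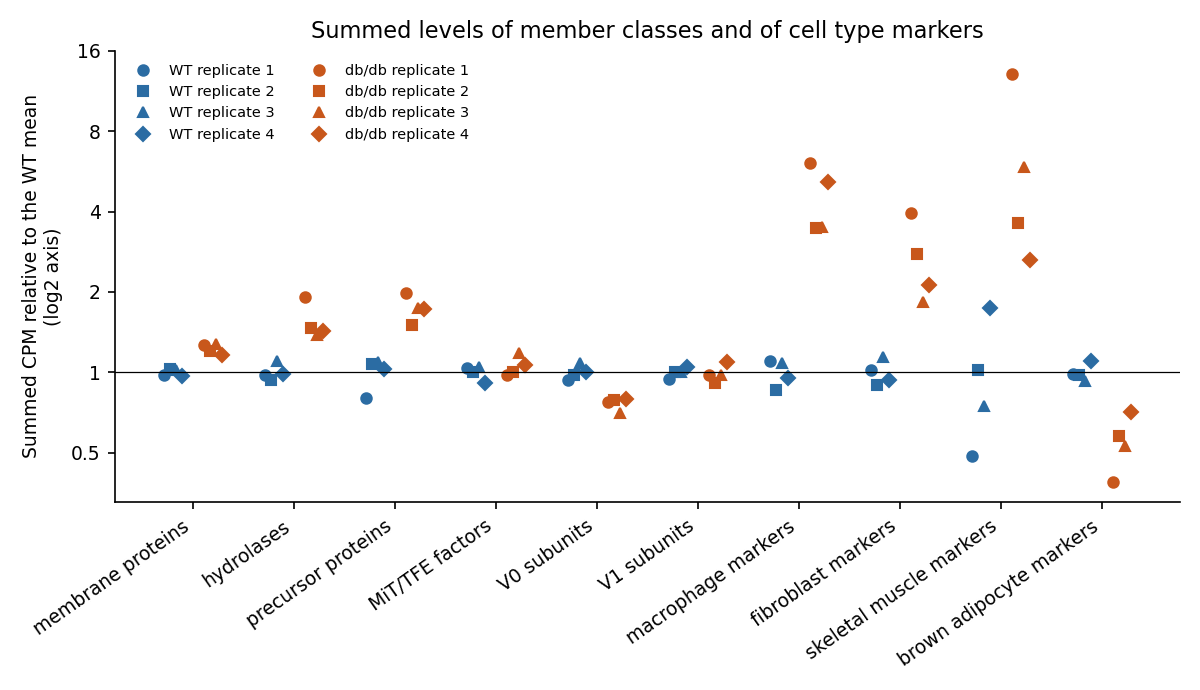
Summed CPM of 6 member classes and 4 marker lists in each library, relative to the WT mean of each (y axis, log2 scale, symbols mark the replicate). Hydrolase sums in db/db lie below 2 times the WT mean, whereas macrophage sums lie above 3 times it. V0 sums, of which Atp6v0e is the largest part, fall below 1, and db/db replicate 1 is the extreme library of the marker lists.

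Exons of 8 members (Lamp1, Hexa, Glb1, Ppt1, Grn, Atp6v0b, Atp6v1e1 and Atp6v1h) share bases with another annotated gene, in 7 cases on the opposite strand. The strand setting of the counting is not given in the sources used here, so reads of such neighbours cannot be told apart and these counts are uncertain. The neighbour counted highest was Cap1, beside Ppt1, with 800 counts over the 8 libraries, and Grtp1, beside Lamp1, had 342.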

How the data were processed

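Bulk RNA-seq libraries of BAT (4 WT, 4 db/db) were grouped by their titles. The authors deposited raw read counts per Ensembl gene, which were analysed here. The study's methods name bbduk, STAR and HTSeq-count on mm10, with DESeq2 for differential expression. The labels' processing notes list Trimmomatic, HISAT2 and DESeq2 on GRCm38, and the study's resource list also names Trimmomatic and HISAT2. No source used here gives the strand setting or says whether molecular identifiers were collapsed, so counts may hold PCR copies. A normalized table and a sample sheet were also deposited and were not used.

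Identifiers were matched to GENCODE M21 (31011 of 31053, unmatched genes holding at most 0.00213% of counts). Genes were filtered with filterByExpr (minimum count 10), scaled by TMM and tested with edgeR 4.0.16 (quasi-likelihood, all 8 libraries, Benjamini-Hochberg adjustment, threshold 0.05). CPM and log2 fold changes come from that fit, and intervals and floors cover counting error only. Each SE was derived from the test, as the absolute log2 fold change divided by the square root of its F statistic. The procedure was tested on simulated data. Alternatives used DESeq2 1.42.0, limma 3.58.1, other scalings and filters, a replicate block, marker scores as covariates and each library left out.

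The members and lists were chosen with earlier results of these data known. All 32 members are named, and from each further list up to 4 of the largest rises and 4 of the largest falls past the threshold, except for some items that are not reported here. Marker lists are given by counts, medians and sums. The chi-square of counts per degree of freedom was at least 4.34 in every pair of libraries of the same genotype, so no library was a duplicate.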

Additional observations from a re-analysis of the deposited data

Results flagged for a closer look

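For the 30 members tested, the 4 libraries per genotype were examined for a single library far from the others by Dixon's criterion. Of 60 such sets, 4 passed its 95% critical value, and chance gives about 3. For Man2b1, db/db replicate 1 stood at 73.4 CPM while the other 3 db/db libraries lay between 39.1 and 44.3 CPM. Ppt1 stood at 64.1 CPM in the same library and between 52.8 and 54.7 CPM in the others. Atp6v1a in WT replicate 1 was at 103.6 CPM, against 113.5 to 114.2 CPM in the other WT libraries. Atp6v1c1 in WT replicate 3 was at 62.8 CPM, against 46.7 to 48.1 CPM. Without db/db replicate 1, Man2b1 and Ppt1 were still called higher, with log2 fold changes of 1.04 and 1.05.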

How the results depend on the processing

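The 10 higher and 2 lower members were the same genes with DESeq2, limma-voom, DESeq2 size factors, upper-quartile scaling and mitochondrial genes left out. Library totals alone, or every gene with a count, removed Atp6ap1, and a filter of 10 counts in every library added Mitf. Leaving out 1 library gave 2236 to 2483 genes called of all tested, 9 to 11 members higher, 2 to 3 lower, 12 to 14 further lysosomal genes higher and 3 to 4 lower, and 0.80 to 1.28 for Gla on the log2 scale, with p = 0.0286 in the exact permutation test without db/db replicate 3, the smallest that design allows. The macrophage score as a covariate left 28 genes called, 0 members higher, 0 lower and 0 further lysosomal genes either way, and turned Man2b1 to -0.40, Grn to -0.18 and Atp6v0a1 to -0.73, while Lamp1 was at 0.64 and Atp6v1d at -0.91. The skeletal muscle score left 465 genes called, 1 member higher, 0 lower, 1 further gene higher and 1 lower, with Lamp1 at 0.52, Atp6v0a1 at 1.29 and Atp6v0e at -0.77. Man2b1 was at 0.76 and Atp6v1b2 at 0.16 with that score. In both fits the score and the genotype are nearly the same split of the libraries, and the cause was not tested. The fit with the replicate number as a block called 2557 genes, 11 members higher (Mitf added) and 2 lower. Same-numbered libraries did not deviate together (correlations -0.08 to 0.05). These values show no pairing of the mice by number, but cannot exclude one with little effect on expression. Depth limits Gla and the genes under about 10 CPM, and the cause of the low counts of Atp6v0c was not tested.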

Other observations

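Autophagy genes, whose products deliver cargo to the lysosome, were called in both directions in db/db BAT, about as often as all genes. Of 27 tested, 3 were higher (11.1%, against 15.8% of all genes) and 4 were lower (14.8%, against 11.9%) by edgeR's quasi-likelihood test (adjusted p under 0.05 over all genes), with a median log2 fold change of -0.05. The pair of kinases that start autophagy had opposite signs. Ulk1 was at 80.1, 92.4, 87.2 and 112.9 CPM in WT and at 38.5, 55.0, 56.3 and 51.3 CPM in db/db (log2 fold change -0.89 ± 0.16, adjusted p = 4.22e-04). Ulk2 was at 21.4, 21.5, 26.3 and 26.3 CPM in WT and at 38.2, 40.4, 42.6 and 43.2 CPM in db/db (0.78 ± 0.17, adjusted p = 0.00184). Neither gene had overlapping genotypes.

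Among the receptors and LC3-like proteins, Sqstm1, the cargo receptor that is itself degraded by autophagy, was lower (-0.44 ± 0.12, adjusted p = 0.0112), as was Gabarapl1 (-0.55 ± 0.13, adjusted p = 0.00385). Exons of both overlap a gene on the opposite strand. Pik3c3, the lipid kinase of early autophagosomes, was lower (-0.68 ± 0.23, adjusted p = 0.0363), a call lost in 5 of the 8 fits without 1 library and with the replicate block. Wipi1, which reads the lipid that Pik3c3 makes, was higher (0.71 ± 0.19, adjusted p = 0.0105), with overlapping libraries. Atg3, which attaches LC3 to membranes, was higher (0.56 ± 0.19, adjusted p = 0.0339), a call lost in 6 of the 8 fits without 1 library, in DESeq2 and with every gene that had a count.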
